A study of Caenorhabditis elegans with 2 samples.

Results

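The endoplasmic reticulum (ER) of *Caenorhabditis elegans* was examined through 10 genes: the lumenal chaperones *hsp-3*, *hsp-4*, *enpl-1* and *crt-1*, the protein disulfide isomerases *pdi-1*, *pdi-3* and *pdi-6*, and the stress sensors and signalling genes *xbp-1*, *ire-1* and *pek-1*. They were chosen by name for their known place in protein folding and stress sensing of this organelle, and all 10 were found among the 18510 genes of the deposited table. Earlier results of these data were known when they were chosen, so the 10 were not tested as a set. The study asked what the peptide AbaPep#07 does in ageing nematodes, and its transcriptome experiment set peptide-fed animals against untreated ones. In the AbaPep#07 group, wild-type N2 nematodes received 2 mM of the peptide from the L4 larval stage, and RNA was taken on Day 10 of adulthood. The Control group held wild-type N2 nematodes of the same age without the peptide. Both groups were kept in shaken liquid culture (S medium) and fed the *E. coli* strain NA22. Other shaken cultures described by the study also held FUDR (fluorodeoxyuridine) and ampicillin. Its account of the RNA samples does not say whether these cultures did. Poly(A) RNA of whole nematodes was sequenced on the BGISEQ-500 platform with a kit that does not keep the strand. Each group gave 1 library made from many pooled animals, so the spread between cultures is unknown, no difference below has a replicate check, and every test on reads compares these 2 libraries and not the treatments. Estimated reads summed to 19241145 in the AbaPep#07 library and 19409907 in the Control library.

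Proteins that enter the secretory pathway fold in the ER lumen, where Hsp70, Hsp90 and lectin chaperones hold them in a soluble state and disulfide isomerases pair their cysteines. When unfolded chains accumulate, transmembrane sensors start the ER unfolded protein response: IRE-1 splices the *xbp-1* mRNA so that it encodes an active transcription factor, PEK-1 phosphorylates the translation initiation factor eIF2α, and ATF-6 is the sensor of the remaining branch. Chaperone and isomerase genes are the classical targets of this response, and in *C. elegans* it is known to respond less strongly in ageing adults.

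Of the 10 genes, 8 had a higher share of reads in the AbaPep#07 library than counting error allowed, 1 (*pek-1*) had a lower share, and 1 (*ire-1*) lay within counting error. Counting error was judged by the exact 95% interval of the read ratio, scaled by library totals, and it leaves out all variation between cultures and library preparations. By this measure 2905 of 14119 genes with at least 20 reads over both libraries were higher (20.6%) and 2905 were lower (20.6%). The interval narrows with depth, and all 10 genes were deeply read. Among the 1414 genes with at least 5000 reads over both libraries, 452 were higher (32.0%) and 598 were lower (42.3%). None of the 10 passed the thresholds of the study, an FDR of 0.05 or less in the PossionDis test for 2 single libraries and a change of at least 2-fold in FPKM (fragments scaled for transcript length and sequencing depth), which 653 of 18510 genes passed (3.53%). In the exact test of edgeR, given a coefficient of variation set at 0.1 to stand for unmeasured differences among cultures, 1 of the 10 (*pdi-6*) was higher and 0 were lower at an unadjusted p under 0.05. By the same criterion 8.45% of the genes with at least 20 reads were higher and 4.26% lower, and of the deeply read genes 6.72% were higher and 1.91% lower, so the count among the 10 was near that of other genes. With the coefficient set at 0.2 in the edgeR test, neither *pdi-6* nor any other of the 10 passed. With a 1.5-fold threshold in place of 2-fold, *pdi-6* alone of the 10 passed, as did 7.65% of all genes. The differences were small: FPKM in the AbaPep#07 library ranged between 0.912 times the Control level for *pek-1* and 1.54 times for *pdi-6*.

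**Figure D1:**
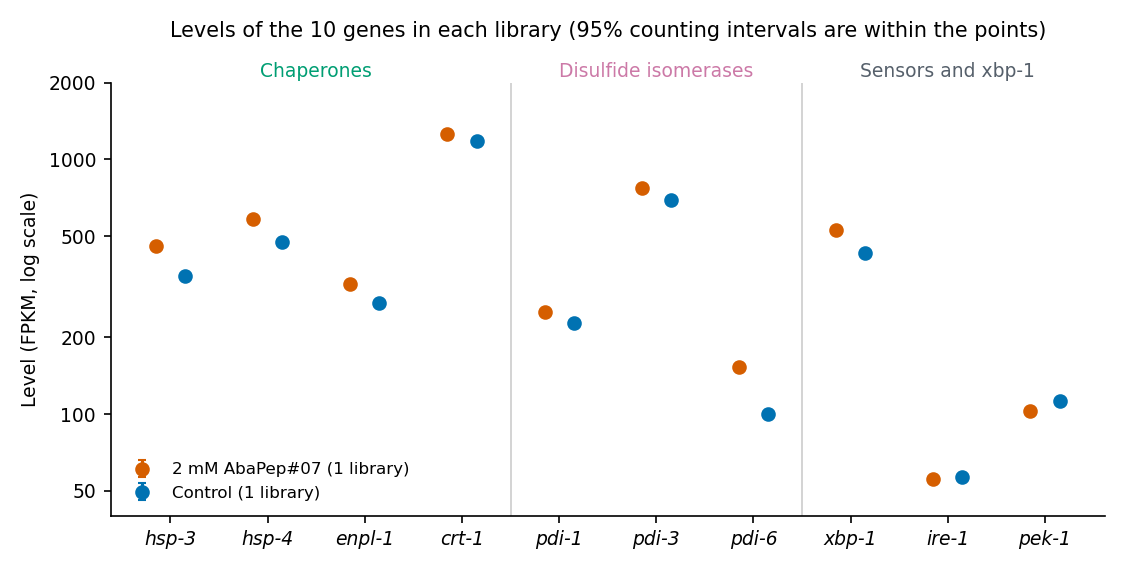
FPKM of the 10 genes in the AbaPep#07 library and, to the right of it, the Control library, 1 point per library on a logarithmic axis, with exact counting intervals. *crt-1* stood highest at 1259.5 FPKM in the AbaPep#07 library and 1177.2 FPKM in the Control library, and *ire-1* lowest at 55.7 FPKM in the AbaPep#07 library and 56.7 FPKM in the Control library.

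All 4 lumenal chaperones were higher in the AbaPep#07 library. *hsp-3* encodes a constitutive ER Hsp70, a counterpart of mammalian BiP, and lies on chromosome X (6089028–6092124, minus strand, WBcel235). It had 14884 reads and 455.9 FPKM in the AbaPep#07 library, against 11472 reads and 348.6 FPKM in the Control library. Its FPKM ratio was 1.31, and the read ratio of 1.31 had a counting interval of 1.28 to 1.34. *hsp-4*, the second BiP counterpart, is the gene most widely used as a reporter of the ER stress response in nematodes (chromosome II, 7350112–7352645, minus strand). It had 16708 reads and 583.7 FPKM in the AbaPep#07 library, against 13432 reads and 473.1 FPKM in the Control library. The FPKM ratio was 1.23 and the read ratio 1.26 (counting interval 1.23 to 1.28). The intervals of *hsp-3* and *hsp-4* overlapped, so the inducible gene was not separated from the constitutive one. The pair together had 31592 reads in the AbaPep#07 library and 24904 in the Control library, a read ratio of 1.28 (counting interval 1.26 to 1.30).

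*enpl-1* encodes endoplasmin, the Hsp90 of the ER, known in mammals as GRP94 (chromosome IV, 11119298–11123155, plus strand). It had 15049 reads and 324.6 FPKM in the AbaPep#07 library, against 12973 reads and 272.7 FPKM in the Control library, an FPKM ratio of 1.19 and a read ratio of 1.170 (counting interval 1.143 to 1.198). Its exons share 23 bases with those of *spo-11* on the other strand, which had 736 reads in the AbaPep#07 library and 805 in the Control library (the kit keeps no strand, and the part of such overlaps was not tested). *crt-1* encodes calreticulin, a calcium-binding lectin chaperone of glycoproteins (chromosome V, 6098992–6100542, minus strand). Its transcript was the most abundant of the 10, with 28229 reads in the AbaPep#07 library and 26383 in the Control library. The read ratio of 1.08 had a counting interval of 1.06 to 1.10, and the interval did not overlap those of *hsp-3*, *hsp-4* and *enpl-1*. Calreticulin thus differed least among the chaperones. Its exons share 92 bases with *smut-1*, which had 1078 reads in the AbaPep#07 library and 1113 in the Control library.

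The isomerases differed among themselves. *pdi-6*, whose mammalian counterpart PDIA6 (P5) is an isomerase that also binds the sensor IRE1, lies on chromosome X (7066342–7068563, minus strand). It had 4232 reads and 153.5 FPKM in the AbaPep#07 library, against 2760 reads and 99.95 FPKM in the Control library. The FPKM ratio of 1.54 was the largest of the 10, the read ratio was 1.55, and its counting interval of 1.47 to 1.62 overlapped that of no other member. Of the 1414 deeply read genes, 51 had a higher ratio. *pdi-3* had 20874 reads and 769.5 FPKM in the AbaPep#07 library, against 18864 reads and 694.4 FPKM in the Control library (chromosome I, 7015908–7020797, minus strand). *pdi-1* had 6277 reads and 252.5 FPKM in the AbaPep#07 library, against 5677 reads and 228.2 FPKM in the Control library (chromosome III, 3699739–3701461, minus strand). Both isomerases, catalysts of disulfide formation and exchange, had a read ratio of 1.12, with counting intervals of 1.09 to 1.14 for *pdi-3* and 1.08 to 1.16 for *pdi-1*. The quotient of *pdi-6* over *pdi-3* FPKM, which needs no scaling between libraries, was 0.1995 in the AbaPep#07 library and 0.1439 in the Control library. *cyn-9*, the cyclophilin gene that shares an operon with *pdi-1*, had 568 reads in the AbaPep#07 library and 631 in the Control library, and its counting interval of 0.809 to 1.02 did not overlap that of *pdi-1*.

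**Figure D2:**
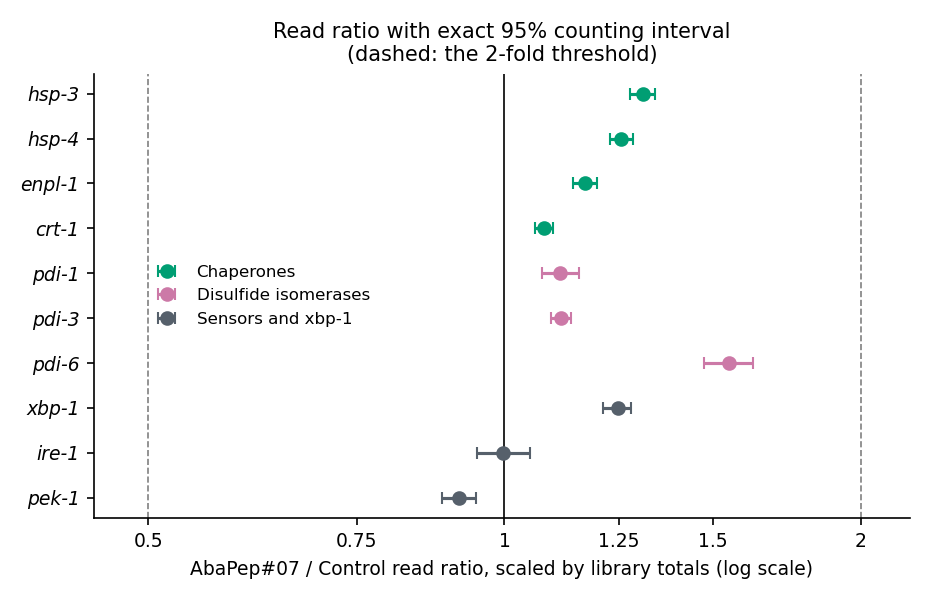
Read ratio (AbaPep#07 over Control, scaled by library totals) of each of the 10 genes on a logarithmic axis, with exact 95% counting intervals, grouped by role. *pdi-6* stood highest at 1.55. *ire-1* at 0.997 had an interval across 1, and *pek-1* at 0.915 was the member lower beyond counting error.

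Of the sensor and signalling genes, *xbp-1* was higher, *pek-1* was lower and *ire-1* lay within counting error. *ire-1*, the kinase and endoribonuclease that splices *xbp-1* mRNA, had 2970 reads and 55.73 FPKM in the AbaPep#07 library, against 3004 reads and 56.74 FPKM in the Control library (chromosome II, 8112243–8124910, minus strand). Its log2 FPKM ratio was -0.03, the sign turned to 0.03 with TPM (length-scaled values brought to the same total in each library) and to 0.01 with TMM scaling, and the read ratio of 0.997 had a counting interval of 0.948 to 1.05. Its exons share 4 bases with *unc-105*, which had 90 reads in the AbaPep#07 library and 100 in the Control library. *pek-1*, the eIF2α kinase, had 6789 reads and 103.0 FPKM in the AbaPep#07 library, against 7483 reads and 112.9 FPKM in the Control library (chromosome X, 11410176–11414887, minus strand). The read ratio of 0.915 had a counting interval of 0.886 to 0.946. *xbp-1*, the transcription factor gene downstream of IRE-1, had 11803 reads and 528.4 FPKM in the AbaPep#07 library, against 9558 reads and 428.0 FPKM in the Control library (chromosome III, 4193809–4195358, plus strand). Its read ratio was 1.246 (counting interval 1.212 to 1.280), with an interval that overlapped that of *hsp-4*. The count is for the gene as a whole, and the share of its mRNA spliced by IRE-1 was not measured.

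Set against the sensors within each library, the summed FPKM of *hsp-3* and *hsp-4* was 18.7 times that of *ire-1* in the AbaPep#07 library and 14.5 times in the Control library. Against *pek-1* the same quotient was 10.1 in the AbaPep#07 library and 7.28 in the Control library. The libraries differed less when the pair was set against *pdi-3*, at 1.35 in the AbaPep#07 library and 1.18 in the Control library. Against *crt-1* the quotient was 0.825 in the AbaPep#07 library and 0.698 in the Control library. These quotients restate the FPKM values given above. The quotient of *xbp-1* over *hsp-4* was 0.905 in both libraries. By level, *crt-1* was followed by *pdi-3*, *hsp-4*, *xbp-1*, *hsp-3*, *enpl-1* and *pdi-1* in both libraries, and *ire-1* was lowest in both. *pdi-6* stood above *pek-1* in the AbaPep#07 library and below it in the Control library, and no neighbours in either order had overlapping counting intervals.

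By role, the 4 chaperones together had a read ratio of 1.175 (counting interval 1.163 to 1.188), the 3 isomerases 1.160 (1.141 to 1.179) and the 3 sensor and signalling genes 1.085 (1.064 to 1.106). Within the last of these sums only *xbp-1* was higher, since *ire-1* and *pek-1* were not higher. All 10 genes summed to 127815 reads in the AbaPep#07 library and 111606 in the Control library, a read ratio of 1.155 (counting interval 1.146 to 1.165). Their median log2 FPKM ratio was 0.20, against -0.03 over all genes with at least 20 reads and -0.04 over the deeply read genes. By FPKM ratio, 9 of the 10 lay above the median of all genes.

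**Figure D3:**
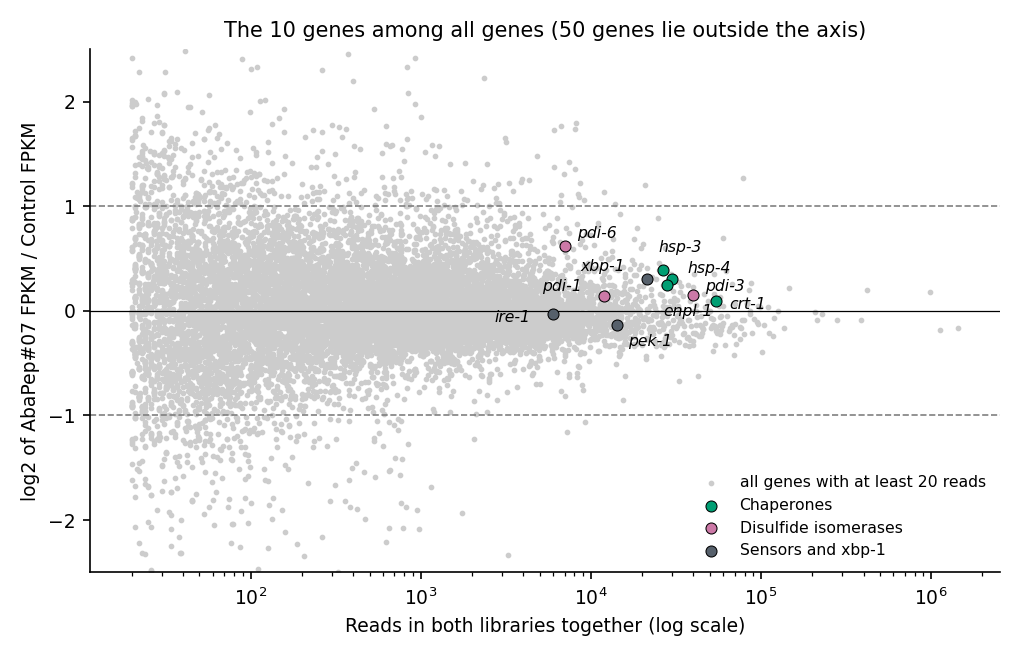
log2 FPKM ratio (AbaPep#07 over Control) against reads in both libraries together on a logarithmic axis. Every gene of at least 20 reads is a grey point, the 10 ER genes are marked, and 50 genes lie outside the plotted range. The members lie at the deep end of the cloud, with *pdi-6* at 0.62 and *pek-1* at -0.13.

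Other genes of the pathway were read from lists drawn up by function. Among 8 further ER chaperone genes, 5 were higher and 2 lower beyond counting error, with a median log2 FPKM ratio of 0.15. Over all genes with at least 20 reads, 20.6% were higher and 20.6% lower by this measure. Some of the 8, such as *cnx-1*, were deeply read, and of the deeply read genes 32.0% were higher and 42.3% lower. *dnj-27*, an ER thioredoxin-like protein with a J domain, had 1185 reads in the AbaPep#07 library and 790 in the Control library (log2 FPKM ratio 0.62). *uggt-1*, the glucosyltransferase that tags misfolded glycoproteins for another round of folding, had 2738 reads in the AbaPep#07 library and 1976 in the Control library (0.48). The lectin chaperone calnexin, *cnx-1*, was lower, with 5640 reads in the AbaPep#07 library and 6323 in the Control library (-0.15), whereas calreticulin was higher. Its counting interval of 0.868 to 0.933 did not overlap that of *crt-1*.

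Among 7 further genes of oxidative folding with at least 20 reads, 3 were higher and 0 lower, with a median of 0.06. Over all genes so read, the shares were 20.6% each. For the deeply read genes, which include *pdi-2* and *C14B9.2*, they were 32.0% higher and 42.3% lower. *pdi-2*, the isomerase that is also the beta subunit of collagen prolyl 4-hydroxylase, had 14302 reads in the AbaPep#07 library and 10926 in the Control library (log2 FPKM ratio 0.39). *C14B9.2*, a protein disulfide isomerase gene, had 3271 reads in the AbaPep#07 library and 2392 in the Control library (0.46). *ero-1*, the oxidase that recharges the isomerases, lay within counting error, with 1750 reads in the AbaPep#07 library and 1719 in the Control library.

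Steps before and after folding were read in the same way, and the shares higher and lower over all genes with at least 20 reads were 20.6% each. Some of these genes were deeply read, and of the deeply read genes 32.0% were higher and 42.3% lower. Of 16 genes for the translocon, signal peptidase and oligosaccharyltransferase, which bring new chains into the ER and modify them, 3 were higher and 1 lower, with a median of 0.00 by FPKM and 0.06 by TPM. *trap-2*, of the translocon-associated complex, stood highest (log2 FPKM ratio 0.23), and *sec-61.B*, a translocon subunit, was the gene lower beyond counting error (-0.21). Of 13 genes of ER-associated degradation, which returns misfolded proteins to the proteasome, 1 was higher and 5 were lower, with a median of -0.11, and 10 lay below the median of all genes. *cdc-48.1*, one of the ATPases that pull substrates out of the membrane, had 6424 reads in the AbaPep#07 library and 7697 in the Control library (log2 FPKM ratio -0.25). *sel-1*, the adaptor of the HRD ubiquitin ligase, was the gene higher beyond counting error (0.10). The listed names *edem-1*, *edem-2* and *edem-3* matched no gene of the deposited table and are missing from these counts.

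The other signalling genes of the response numbered 6, of which 2 were higher and 2 lower, beside 20.6% each over all genes with at least 20 reads. *atf-6*, the sensor of the remaining branch, had 723 reads in the AbaPep#07 library and 747 in the Control library and lay within counting error, as did *ire-1*. *atf-4*, the transcription factor translated when eIF2α is phosphorylated, had 1479 reads in the AbaPep#07 library and 1372 in the Control library (log2 FPKM ratio 0.10). *eif-2alpha* (-0.11) and the cytosolic eIF2α kinase gene *gcn-2* (-0.15) were lower, and *ckb-2*, a choline kinase gene, was higher on few reads, 169 in the AbaPep#07 library and 122 in the Control library.

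A different direction was seen in the *abu* family, genes for Q/N-rich repeat proteins first described as activated when the unfolded protein response is blocked. Of 14 in the table, 6 had at least 20 reads. Of these, 5 were lower beyond counting error and 4 passed the thresholds of the study (*abu-8*, *abu-10*, *abu-11* and *abu-14*), with a median log2 FPKM ratio of -1.24. Over all genes 3.53% passed those thresholds, and 20.6% of the genes with at least 20 reads were lower beyond counting error. The study placed *abu* genes in a category of the ER response from these same libraries, so the family is no independent evidence of a direction. Reads were few, with 245 in the AbaPep#07 library and 593 in the Control library for *abu-14*, the deepest of them, and near-identical family members can share reads. Several *abu* genes are known to be expressed in the pharynx. Of 4 pharyngeal marker genes 1 was higher and 3 were lower, with a summed level of 133.1 TPM in the AbaPep#07 library and 160.7 TPM in the Control library, and their part in the *abu* values was not tested.

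The chaperones of other compartments were set beside those of the ER. Of 14 cytosolic chaperone genes, 2 were higher and 10 lower beyond counting error, with a median of -0.13. The list also named *daf-21*, which matched no gene of the deposited table and is missing from these counts. All 14 were deeply read, and of the deeply read genes 32.0% were higher and 42.3% lower. Over all genes with at least 20 reads the shares were 20.6% each. *sti-1*, the Hsp70–Hsp90 organizing cochaperone, had 4875 reads in the AbaPep#07 library and 6340 in the Control library (log2 FPKM ratio -0.38). *cct-7*, a subunit of the cytosolic chaperonin, was also lower (-0.32), and the J-domain gene *dnj-13* was higher (0.18). *hsp-1*, the constitutive cytosolic Hsp70 and counterpart of *hsp-3* and *hsp-4* outside the ER, had 103536 reads in the AbaPep#07 library and 104854 in the Control library, a read ratio of 0.996 (counting interval 0.988 to 1.005). Of 9 genes of mitochondrial chaperones and stress response, 1 was higher (*dve-1*, 0.32) and 3 were lower beyond counting error. The mitochondrial Hsp70 gene *hsp-6* had 28742 reads in the AbaPep#07 library and 29767 in the Control library (counting interval 0.958 to 0.990). Neither interval overlapped that of *hsp-3* or *hsp-4*, and of these named Hsp70 genes only the ER pair was higher. Because *hsp-6* was named after its values were seen, this comparison only describes the named genes. The lists held no clean split by compartment. The cytosolic gene *hsp-110* was higher, with a read ratio of 1.029 (counting interval 1.017 to 1.041). *T24H7.2*, on the ER chaperone list, was lower at 0.934 (0.901 to 0.969).

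**Figure D4:**
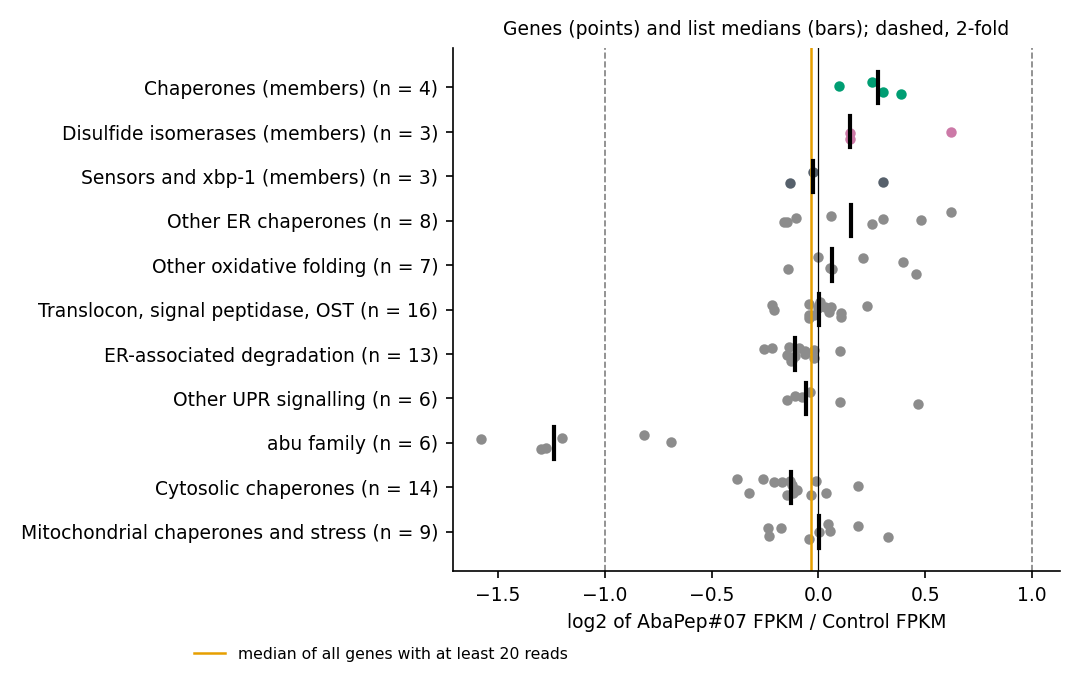
log2 FPKM ratio (AbaPep#07 over Control) of single genes as points, by list, with the median of each list as a bar and the median of all genes as a line. The 10 ER genes are drawn by role, with medians of 0.28 for chaperones, 0.15 for isomerases and -0.03 for sensor and signalling genes. The cytosolic chaperones had a median of -0.13 and the *abu* family -1.24.

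The libraries also differed in genes that mark tissues, as RNA came from whole nematodes. All 8 germline and oocyte markers were lower beyond counting error, with a summed level of 1857 TPM in the AbaPep#07 library and 2225 TPM in the Control library. Over all genes with at least 20 reads, 20.6% were higher and 20.6% lower by this measure. For the deeply read genes, which include these 8, the shares were 32.0% and 42.3%. Of 6 intestinal markers, 4 were higher and 1 lower, with a summed level of 11708 TPM in the AbaPep#07 library and 11298 TPM in the Control library. Most of that sum came from *vit-2* and *vit-6*, which differed in opposite directions. *vit-2* had 6531.1 TPM in the AbaPep#07 library and 7020.9 in the Control library, and *vit-6* had 4853.1 and 4107.4. The intestinal actin gene *act-5* passed the thresholds of the study, as did 3.53% of all genes. It had 5757 reads in the AbaPep#07 library and 2653 in the Control library. Muscle markers (1 higher and 3 lower of 5), neuronal markers (1 and 3 of 6) and hypodermal markers (1 and 2 of 4) had summed levels of 671.6, 544.8 and 928 TPM in the AbaPep#07 library, and 687.8, 537.2 and 850.2 TPM in the Control library. Most of the hypodermal sum was *col-140*, the marker that was higher, at 680.2 TPM in the AbaPep#07 library and 494.2 TPM in the Control library. No marker on these lists was at 0 in either library. The intestine and the germline both express ER chaperones, and the part of these markers in the differences of the ER genes was not tested. Fewer cells of a type and less RNA per cell cannot be told apart in such RNA.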

How the data were processed

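The 2 libraries (1 AbaPep#07, 1 Control) held poly(A) RNA read on the BGISEQ-500. The authors filtered reads with SOAPnuke, and used HISAT2 (2.0.4), Bowtie2 (2.2.5) and RSEM (1.2.12) with the WBcel235 genome. The estimated counts deposited by the authors are RSEM reads per gene, not normalized. All 10 genes had whole estimated counts in both libraries (within 0.005), whereas 1990 genes of the AbaPep#07 library and 1986 of the Control library did not. The deposited FPKM values are scaled by the authors for transcript length and depth, and the deposited TPM values for length and to the same total in each library. Columns with the authors' log2 ratios, p-values and FDR were not used, and 0 other columns of per-sample values were present.

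Log2 FPKM ratios (0.01 in place of 0) were computed, with exact Clopper-Pearson 95% intervals of the read ratio, scaled by library totals. The PossionDis test was run with Benjamini-Hochberg adjustment over all 18510 genes. Its code was checked on simulated reads with counting error only, which cannot show how it behaves when cultures vary. Intervals cover counting error only. Without replicates, neither the quasi-likelihood test of edgeR nor DESeq2 could be fitted, so edgeR (4.0.16) entered with an assumed variation and for TMM, and DESeq2 (1.42.0) for size factors, in R 4.3.3. The other steps used Python 3.11.15, pandas 2.3.3 and scipy 1.17.1. Counting statements on single genes use genes with at least 20 reads over both libraries.

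All 10 members were described. From the other lists, genes that passed the study thresholds and up to 3 highest and 3 lowest by log2 FPKM ratio with at least 100 reads over both libraries could be named, and so could any marker gene. *ero-1*, *hsp-6* and the KEGG genes fall outside this rule and were named after their values were seen. The members and lists were chosen with earlier results of these data known. Some listed names on several of the lists matched no gene of the deposited table and were not analysed. Coordinates are those of the Ensembl annotation of WBcel235. Alternatives were other scalings, an added 1 FPKM, other forms of the test, other thresholds and read minimums.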

Additional observations from a re-analysis of the deposited data

How the results depend on the processing

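With 1 library per condition, no library could be left out and the variation between cultures is unknown. No paired analysis was possible because each group held 1 library. The median log2 ratio of the 10 genes was 0.20 with FPKM and 0.26 with TPM, and 0.19 to 0.21 under the other scalings and settings. The median of all genes with at least 20 reads moved as well, from -0.03 with FPKM to 0.03 with TPM. The median of the 10 lay 0.23 above it on both scales. With a 1.5-fold threshold in place of 2-fold, 1 of the 10 (*pdi-6*) passed, and 1416 of all genes did, against 653. All-gene calls numbered 268 with Bonferroni adjustment, and 361 and 85 in the exact test of edgeR with an assumed coefficient of variation of 0.1 and 0.2 between cultures. At an assumed 0.1, 1 of the 10 (*pdi-6*) was higher and 0 were lower at an unadjusted p under 0.05, against 8 and 1 by counting error alone, and by this criterion 8.45% of the genes with at least 20 reads were higher and 4.26% lower. At an assumed 0.2, neither *pdi-6* nor any other of the 10 passed this criterion. No member beyond counting error changed direction in any alternative run. The log2 ratios of 8 members moved by more than counting error with TPM, as in *hsp-3*, at 0.45 with TPM and 0.39 with FPKM.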

Other observations

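The KEGG set for protein processing in the ER, chosen after values were seen, held 137 genes, of which 136 had at least 20 reads. Of these, 41 exceeded counting error upwards in the AbaPep#07 library and 33 downwards, with a median log2 FPKM ratio of -0.02. Over all genes with at least 20 reads the shares were 20.6% each. Without the 10 genes described above, 33 were higher and 32 lower of 126, with a median of -0.03. The highest of the set were genes of Skp1-cullin ubiquitin ligases and a glucosidase. *skr-12*, a Skp1-related gene, had 59 reads in the AbaPep#07 library and 28 in the Control library. It was the gene of the set that passed the thresholds of the study, which 3.53% of all genes passed. *skr-21* had 192 reads in the AbaPep#07 library and 102 in the Control library (log2 FPKM ratio 0.87). *skr-3* had 1746 reads in the AbaPep#07 library and 1046 in the Control library (0.72), and the cullin gene *cul-6* had 284 reads in the AbaPep#07 library and 181 in the Control library (0.65). *aagr-4*, an acid alpha-glucosidase related gene, had 411 reads in the AbaPep#07 library and 241 in the Control library (0.78). *skr-2*, another Skp1-related gene, was lower (-0.40), and closely related *skr* genes can share reads. The lowest was *jnk-1*, a stress-activated kinase gene, with 101 reads in the AbaPep#07 library and 171 in the Control library (-0.76).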
